A study of Homo sapiens with 2 samples.

Results

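The EGFR family was followed through 10 genes, 3 receptors (EGFR, ERBB2 and ERBB3), 5 ligands (AREG, EREG, TGFA, HBEGF and NRG1) and 2 inhibitors (ERRFI1 and LRIG1). They were found by matching their symbols to the Ensembl gene IDs of the count files, and all 10 were present among 22965 listed genes. The counts came from 2 RNA-seq libraries of the human lung cancer line H460, a large-cell carcinoma line, both at passage 5. The first library came from cells with the pSin-puro vector alone (genotype control) and the second from cells in which pSin-puro delivered PKP2. Plakophilin 2, the product of PKP2, is a desmosomal plaque protein with armadillo repeats, and the question of the study was which genes act downstream of it. The sources used here do not say whether the cells were clones or pools, and with 1 library per group there is no replicate, so every difference given here is between these 2 libraries and has no test across cultures.

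The receptors of this family are tyrosine kinases at the cell surface that pair with themselves or with each other once a ligand binds. AREG, EREG, TGFA and HBEGF are made as membrane-anchored precursors, cut free by ADAM proteases, and bind EGFR. NRG1 binds ERBB3 and ERBB4, while ERBB2 has no known ligand of its own and ERBB3 has little kinase activity, so both act mainly as partners. ERRFI1 (MIG6) binds the EGFR kinase domain and blocks it, and LRIG1 is a transmembrane protein that promotes receptor degradation. In epithelial cells the signal runs through adaptors to the RAS-ERK and PI3K pathways.

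EGFR, NRG1 and ERRFI1 were each higher in the PKP2 library by 1.36-fold to 1.5-fold, beyond counting error, and LRIG1 was lower, at 0.808 times its vector level. ERBB2 and HBEGF differed by less than counting error, and ERBB3, AREG, EREG and TGFA had too few counts to place. After a correction for the GC content of transcripts, given with the GC trend, the interval of LRIG1 took in 0 and that of ERBB2 no longer did. In bulk libraries, a different share of expressing cells and a different amount of RNA per cell cannot be told apart. All 10 members passed the minimum mean of 10 counts and all lay within 2-fold between the libraries. Of the 15991 genes tested, 7.08% lay at least 2-fold apart, 2.47% higher and 4.61% lower. A threshold of 1.5-fold was passed by EREG and TGFA, and by 19.7% of genes.

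The upstream sequences of EGFR and ERRFI1 are shown because these are the receptor and the inhibitor that were higher in the PKP2 library. Each is the 250 bases before the most upstream start of the gene in RefSeq (build GRCh38.p14), 5′ to 3′ on the gene's strand, at chr7:55018767-55019016 (plus strand) for EGFR and chr1:8026310-8026559 (minus strand) for ERRFI1. Capitals mark matches on either strand to GGGCGG, the core of the GC box bound by Sp1-type factors, and to TCCTCC, a repeat known from the EGFR promoter.
EGFR: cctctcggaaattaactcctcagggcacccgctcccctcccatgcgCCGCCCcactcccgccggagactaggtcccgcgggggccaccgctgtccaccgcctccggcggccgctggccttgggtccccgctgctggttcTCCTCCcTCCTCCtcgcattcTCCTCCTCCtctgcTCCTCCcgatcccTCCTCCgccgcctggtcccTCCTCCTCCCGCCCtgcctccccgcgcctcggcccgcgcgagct
ERRFI1: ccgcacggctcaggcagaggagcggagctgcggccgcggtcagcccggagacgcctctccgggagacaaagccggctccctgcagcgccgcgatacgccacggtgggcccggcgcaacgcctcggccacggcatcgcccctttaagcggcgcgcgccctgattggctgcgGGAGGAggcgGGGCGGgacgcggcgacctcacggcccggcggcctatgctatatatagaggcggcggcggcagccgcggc

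The EGFR window held 8 matches to TCCTCC, some of them overlapping, and 2 to GGGCGG, of which 1 overlaps a TCCTCC match. The ERRFI1 window held 1 match to each. Among all 35116 RefSeq windows of this length, 31.8% held TCCTCC and 42.6% held GGGCGG. These shares are not matched for GC content, which was 73.6% for EGFR and 75.2% for ERRFI1. The median over all windows was 58%. Neither window held TATAAA, found in 10.7% of windows, the AP-1 letters TGANTCA (6.57%) or the cyclic AMP response element TGACGTCA (1.65%). Only these exact letters were searched, so similar stretches, such as tatatata near the end of the ERRFI1 window, were not counted. The windows of the neighbouring ligand genes AREG and EREG on chromosome 4 each held 1 TATAAA, starting 29 and 32 bases before the start. Windows were used for 8 members. These matches describe the letters only.

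Library totals were 23513304 counts (vector) and 20319137 counts (PKP2). PKP2 was counted 181 times in vector cells and 1330 times in PKP2 cells, an 8.66-fold difference in the direction of the labels. Of 5 epithelial markers 4 were measured, with summed levels of 1223 and 1233 CPM (counts relative to the scaled library size). Its parts went different ways, with KRT8 at 697 and 465 CPM, KRT18 at 251 and 188 and KRT19 at 274 and 578, while EPCAM had only 28 and 16 counts. Of 4 lung epithelial markers 2 were measured, both close to 0 (NKX2-1 with 10 and 3 counts, NAPSA with 8 and 0). Of 3 endothelial markers only VWF was measured, with 2 and 0 counts. Of 4 leukocyte markers only CD68 was measured, at 15.3 and 20.5 CPM, and of 4 fibroblast markers COL1A1 at 5.56 and 2.38 CPM and PDGFRB at 4.68 and 10.3. The other markers were not found among the listed genes. The part of any of these cell types in the results was not tested.

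EGFR (ENSG00000146648, chromosome 7), the founding receptor of the family, was counted 2476 times in vector cells and 3146 times in PKP2 cells, at levels of 104 and 156 CPM. It had the most counts of the 10 members in both libraries. The log2 ratio of the PKP2 library over the vector library was 0.58, with a 95% interval of 0.51 to 0.66, a 1.5-fold difference. Intervals of single genes are exact binomial intervals of the 2 counts and cover counting error only. A ratio at or above that of EGFR was found in 4.0% of the 4845 genes whose mean reached 1000 counts. None of the 31-base stretches of EGFR transcripts was found in another listed gene. Its exons overlap those of the antisense gene EGFR-AS1, which was not found among the listed genes. The 3 well-counted genes with ratios nearest to that of EGFR were MAFK, NID2 and GDA, each at 0.58, a likeness over 2 libraries that many genes can share.

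ERBB2 (ENSG00000141736, chromosome 17), which encodes HER2, was counted 547 times in vector cells and 486 times in PKP2 cells, at 23.1 and 24.1 CPM. Its ratio was 0.07 (interval -0.11 to 0.24), so the libraries could not be told apart at this depth. The exons of ERBB2 overlap those of 2 genes on the opposite strand, and whether the counting used strand is not given in the sources used here. MIEN1, which shares 4.81% of the 31-base stretches of ERBB2, went from 455 counts to 568 (ratio 0.56, interval 0.38 to 0.74), and PGAP3 from 129 to 106. Summed with MIEN1, ERBB2 had a ratio of 0.31, and summed with PGAP3 one of 0.05.

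ERBB3 (ENSG00000065361, chromosome 12), the receptor for neuregulins, had only 25 counts in vector cells and 26 in PKP2 cells. Its ratio was 0.29 with an interval of -0.56 to 1.15, which takes in both no difference and a 2-fold one. ERBB4, the other neuregulin receptor, was not found among the listed genes. Per kilobase of transcript, the scale on which genes can be compared, EGFR stood at 10.6 and 15.9 CPM per kb, ERBB2 at 5.07 and 5.31, and ERBB3 at 0.178 and 0.218. EGFR thus made up 66.9% of the summed level of the 3 receptors in vector cells and 74.2% in PKP2 cells, and ERBB3 1.12% and 1.02%. With the longest transcript of each gene in place of the principal one, the share of EGFR was 68.6% and 75.7%.

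The ratio of EGFR to ERBB2 counts does not depend on how the libraries are scaled. It was 4.53 in vector cells and 6.47 in PKP2 cells, a log2 difference of 0.52 (exact conditional interval 0.32 to 0.71). After a correction for GC content, described with the GC trend, the 2 receptors' ratios differed by 0.17. No interval was computed for that corrected difference, and the receptor shares given above carry no GC correction.

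**Figure D1:**
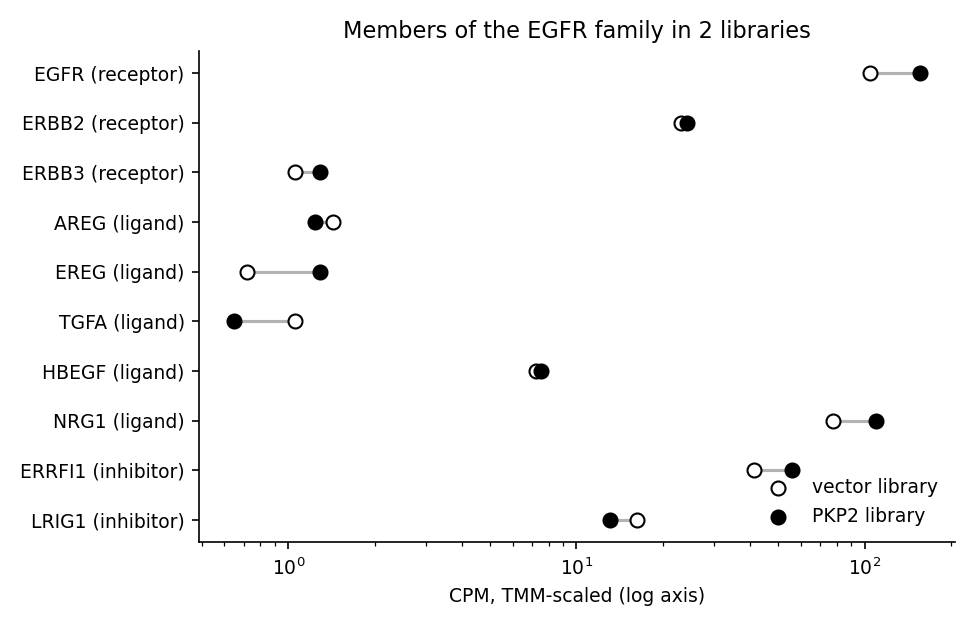
Level of each of the 10 members as CPM on a log axis in the vector library (open circles) and the PKP2 library (filled circles), 1 library each. EGFR, NRG1 and ERRFI1 lie farthest right and each is higher in the PKP2 library, while ERBB3, AREG, EREG and TGFA lie near 1 CPM.

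NRG1 (ENSG00000157168, chromosome 8), neuregulin 1, was the ligand with the most counts, 1848 in vector cells and 2211 in PKP2 cells, at 77.9 and 110 CPM. Its ratio was 0.50 (interval 0.41 to 0.59), a 1.41-fold difference, and 5.78% of the genes whose mean reached 1000 counts lay at or above it. Only 0.14% of its 31-base stretches were found in other listed genes. Its ratio and that of EGFR differed by 0.09 (interval -0.03 to 0.21), within counting error.

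HBEGF (ENSG00000113070, chromosome 5), the heparin-binding ligand, had 172 and 152 counts, or 7.25 and 7.55 CPM. Its ratio was 0.06 (interval -0.27 to 0.38), so a difference was not detectable at this depth. The ratio of NRG1 to HBEGF counts was 10.7 in vector cells and 14.5 in PKP2 cells, a log2 difference of 0.44 (interval 0.10 to 0.77).

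AREG (ENSG00000109321, chromosome 4), amphiregulin, had 34 counts in vector cells and 25 in PKP2 cells, a ratio of -0.21 (interval -1.01 to 0.58). EREG (ENSG00000124882, chromosome 4), epiregulin, had 17 and 26 counts, and 5.40% of its 31-base stretches are found in other genes. Its ratio of 0.85 (interval -0.09 to 1.82) was the highest of the 10 members, and with 1 CPM added to both libraries it was 0.42. TGFA (ENSG00000163235, chromosome 2), transforming growth factor alpha, had 25 and 13 counts and the lowest ratio, -0.71 (interval -1.80 to 0.31). The intervals of these 3 ligands all take in 0, and each reaches past 2-fold.

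Per kilobase of the principal transcript, NRG1 was the highest of the 5 ligands in both libraries, at 38.3 and 54.0 CPM per kb, followed by HBEGF at 3.04 and 3.16 and AREG at 1.16 and 1.00. TGFA stood at 0.244 and 0.150 and EREG at 0.155 and 0.280, an order that turned between the libraries on few counts. NRG1 made up 89.3% of the summed level of these 5 ligands in vector cells and 92.2% in PKP2 cells. The sum leaves out the other ligand genes, among them EPGN, which had 1710 and 1480 counts. NRG1 has 22 annotated transcripts, and its principal one is 2035 bases long while the longest is 5931. With longest transcripts the share of NRG1 was 74.1% and 80.1%, and NRG1 stood at 13.1 and 18.5 CPM per kb.

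ERRFI1 (ENSG00000116285, chromosome 1), the cytoplasmic inhibitor of the EGFR kinase, had 979 counts in vector cells and 1126 in PKP2 cells, at 41.3 and 55.9 CPM. Its ratio was 0.44 (interval 0.31 to 0.56), a 1.36-fold difference, and none of its 31-base stretches was found in another listed gene. Its ratio lay 0.14 below that of EGFR, and the interval of that difference (-0.003 to 0.29) takes in 0. With the GC trend subtracted ERRFI1 lay 0.23 below EGFR, a difference for which no interval was computed. Per kilobase it stood at 13.3 and 18.0 CPM per kb, above EGFR in each library.

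LRIG1 (ENSG00000144749, chromosome 3), the membrane inhibitor, had 385 counts in vector cells and 264 in PKP2 cells, at 16.2 and 13.1 CPM. Its ratio was -0.31 (interval -0.54 to -0.08). Its exons overlap those of SLC25A26 on the opposite strand, a mitochondrial carrier gene that holds 11.3% of the 31-base stretches of LRIG1 and had 302 and 286 counts. Summed over both genes the ratio was -0.08. The ratio of ERRFI1 to LRIG1 counts was 2.54 in vector cells and 4.27 in PKP2 cells, so the 2 inhibitors differed by 0.75 on the log2 scale (interval 0.48 to 1.01), and by 0.48 with the GC trend subtracted. EGFR and LRIG1 differed by 0.89 (interval 0.65 to 1.13), and by 0.72 with the trend subtracted. No interval was computed for these corrected differences.

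**Figure D2:**
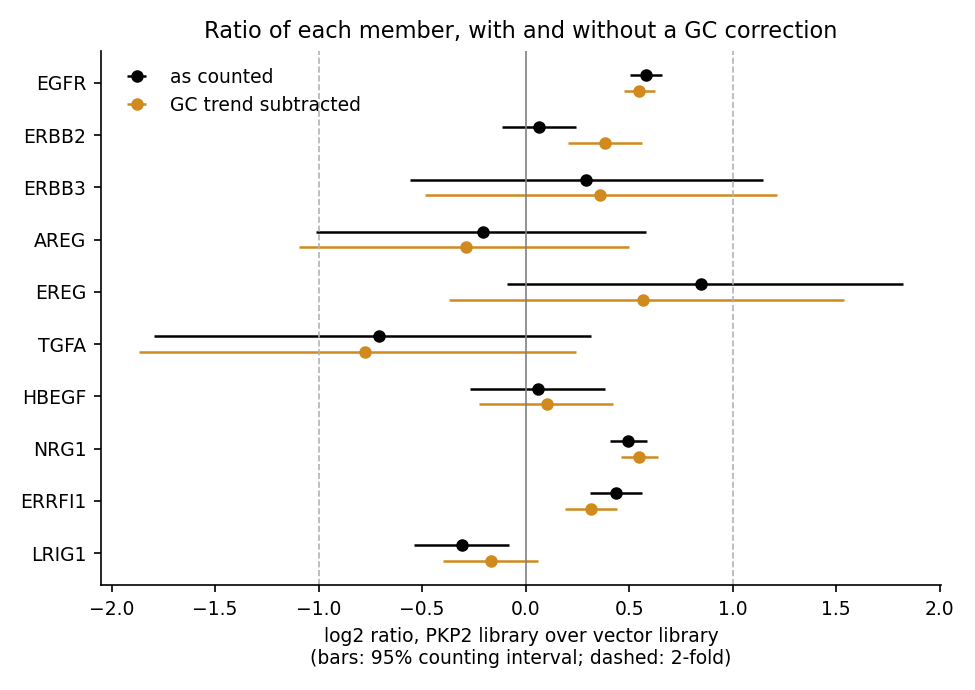
Log2 ratio of the PKP2 library over the vector library for each member, as counted (black) and with the GC trend subtracted (orange), with 95% counting intervals and dashed lines at 2-fold. EGFR, NRG1 and ERRFI1 lie above 0 in both versions, ERBB2 moves from 0.07 to 0.38, and the interval of LRIG1 takes in 0 once the trend is subtracted.

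Across the 10 members 7 ratios were above 0 and 3 below, with a median of 0.18, against -0.03 over all genes tested, of which 47.3% were above 0. Counting intervals lay wholly above 0 for 3 members and wholly below 0 for 1, and took in 0 for 6. Over all genes tested, 25.9% had an interval wholly above 0 and 28.8% one wholly below, so such an interval alone sets no gene apart. Counts decide how often it occurs, since an interval excluded 0 for 65.5% of genes whose mean reached 100 counts and for 25.8% of those with a mean of 10 to under 100. Of the 10 members 6 fell in the first class and 4, namely ERBB3, AREG, EREG and TGFA, in the second.

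**Figure D3:**
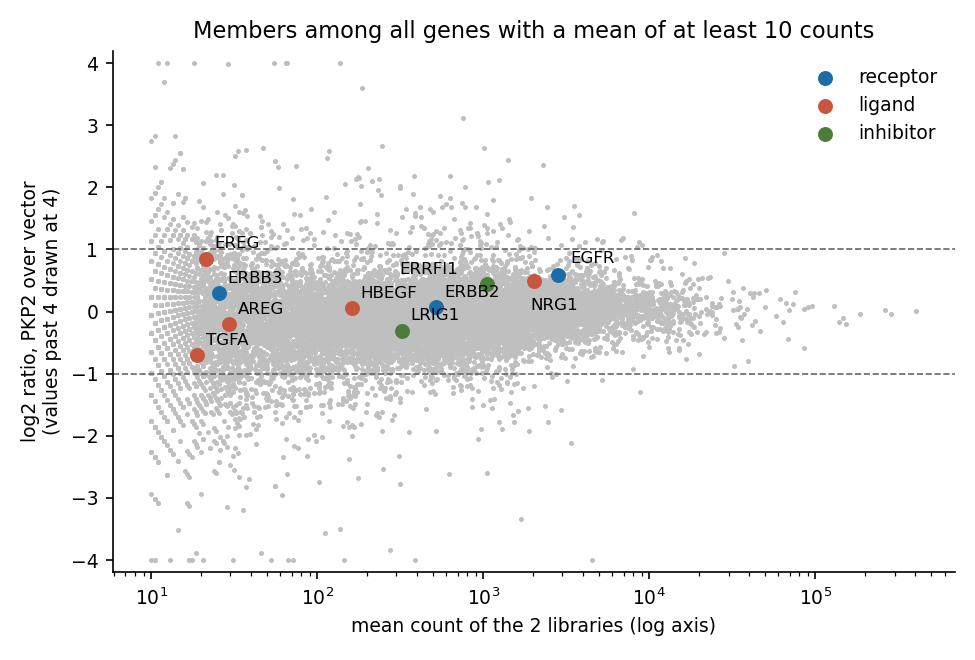
Log2 ratio against the mean count of both libraries (log axis) for the genes tested (grey; ratios past 4 are drawn at 4 and genes at 0 in either library are left out), with the members coloured by role and dashed lines at 2-fold. All 10 members lie between the dashed lines, and the members nearest to them, EREG and TGFA, have mean counts of 21.5 and 19.

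The ratios of these libraries moved with the GC content of the transcript. Spearman's rho was -0.61 across 11610 genes whose mean reached 100 counts, which share these 2 libraries and are not independent replicates. Among the 1161 genes lowest in GC content the median ratio was 0.25, and among the 1161 highest it was -0.47. ERBB2, with 60.3% GC, lay where the trend stood at -0.32, LRIG1 (54.7%) where it stood at -0.14, EGFR (47.5%) at 0.03, NRG1 (51.4%) at -0.05 and ERRFI1 (43.4%) at 0.12. EREG, with 36.1% GC the lowest of the members, lay at 0.28.

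With the trend subtracted, EGFR had a ratio of 0.55 (interval 0.47 to 0.63), NRG1 one of 0.55 (0.46 to 0.64) and ERRFI1 one of 0.32 (0.19 to 0.44). ERBB2 had 0.38 (0.21 to 0.56), so that its interval no longer took in 0. LRIG1 had -0.17 (-0.40 to 0.06), so that its interval did. The intervals of 4 members then lay wholly above 0 and of 0 members wholly below, against 21.4% and 21.0% of genes. Corrected ratios were above 0 for 7 members and for 48.9% of genes, and the median over the members was 0.34 against -0.01 over all genes. These intervals cover counting error and not the uncertainty of the trend.

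Among genes whose mean reached 1000 counts, 3.47% had a corrected ratio at or above that of EGFR and 3.53% one at or above that of NRG1. Relative to the median of the 100 genes closest to each member in GC content and length of transcript, the ratio of EGFR was 0.57, of NRG1 0.55, of ERBB2 0.42, of ERRFI1 0.28 and of LRIG1 -0.12. The longest NRG1 transcript has 43.9% GC, and with the GC content of longest transcripts the corrected ratio of NRG1 was 0.39 and that of ERBB2 0.31. Beyond these corrections, the part of the GC trend in the members' ratios was not tested.

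**Figure D4:**
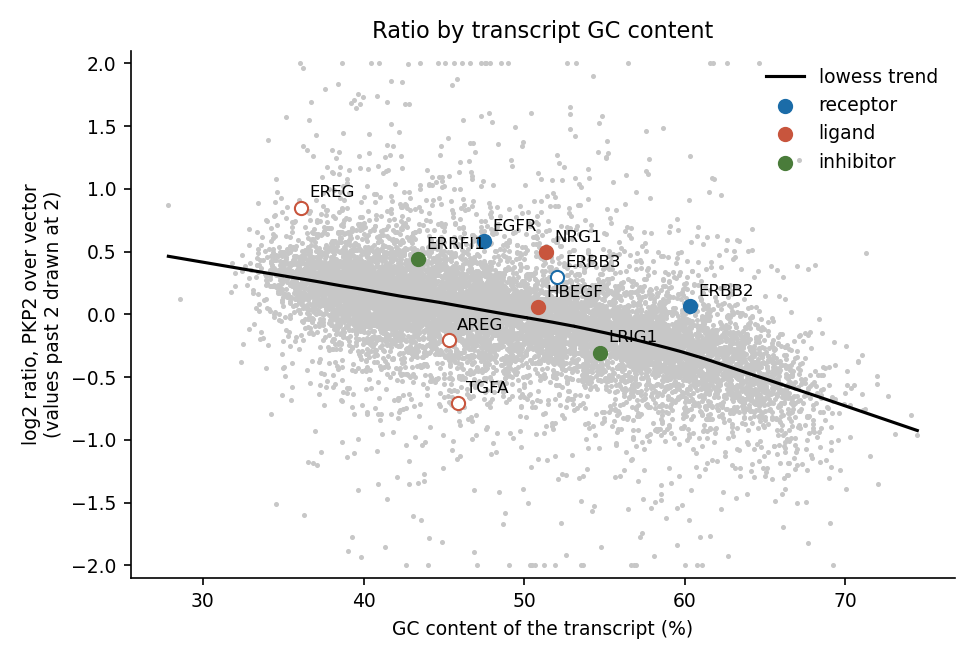
Log2 ratio against transcript GC content for genes whose mean reached 100 counts (grey; ratios past 2 are drawn at 2), with the lowess trend (black) and the members coloured by role. Open circles are the 4 members with fewer counts. Of the 10 members 7 lie above the trend, among them EGFR, NRG1, ERBB2 and ERRFI1.

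Around the members, 137 pathway genes were grouped into 9 lists by role, of which 130 reached the minimum mean of 10 counts. Of these 4 were 2-fold or more higher and 2 were 2-fold or more lower, or 4.62%, against 7.08% of all genes tested. The share over all genes is smaller at higher counts. Of 11637 genes whose mean reached 100 counts, 161 were that much higher and 209 that much lower. The pathway genes were not matched to all genes by count. The family's other receptor gene, ERBB4, was not found among the listed genes, which leaves 8 lists with values.

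The 5 other ligand genes measured were all within 2-fold. Their median was 0.03, or -0.15 with the GC trend subtracted. Of the 5 intervals 1 lay wholly above 0, against 25.9% of all genes tested. EGF, which encodes epidermal growth factor, had 646 and 663 counts (0.27, interval 0.12 to 0.43). EPGN, epigen, had 1710 and 1480 counts (0.03) and NRG4, neuregulin 4, had 582 and 496 (0.01). Exons of NRG4 overlap those of FBXO22 on the opposite strand, which had 2290 and 2225 counts. Of the 31-base stretches of NRG4, 35.4% occur in other listed genes.

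Genes that release ligands were all within 2-fold as well. Of the 9 genes 4 were above 0, against 47.3% of all genes tested. Their median was -0.04, or 0.13 with the GC trend subtracted. ADAM17, the main protease for TGFA, AREG and HBEGF precursors, had 3019 and 3103 counts (0.28, interval 0.20 to 0.35). ADAM9 had 5971 and 7286 counts (0.52) and ADAM15 had 5300 and 3730 (-0.27, and 0.14 with the trend subtracted).

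None of the 12 other inhibitors and phosphatases was 2-fold apart. Their median was 0.14, or 0.05 with the GC trend subtracted. Before that correction 9 were above 0, against 47.3% of all genes tested. Those with the most counts were SOCS3 (-0.04) and SOCS4 (-0.18), which belong to the cytokine signalling suppressors, and the receptor phosphatase gene PTPRJ (0.20). The 26 genes of receptor ubiquitination and endocytosis had a median of 0.08, or 0.02 with the trend subtracted, and none was 2-fold apart. CLTC, the clathrin heavy chain, had a ratio of 0.31, the adaptor subunit gene AP2B1 0.04 and SH3KBP1, which encodes the CBL partner CIN85, 0.34.

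Adaptors and first effectors had 20 of 21 genes within 2-fold and a median of -0.04. The exception was GRB7, an adaptor that binds ERBB2, with a ratio of -1.04 on only 17 and 7 counts and an interval (-2.56 to 0.30) that takes in 0. Those with the most counts were SHC1 (-0.04), which links the receptors to RAS activation, the phosphatase gene PTPN11 (0.18), and IRS2 (0.08). All 16 genes of the RAS-ERK cascade were within 2-fold, with a median of 0.08. Among them were the kinase gene RPS6KA3 (0.27) and the RAS inhibitor NF1 (0.13).

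In the PI3K arm 9 of 10 genes were within 2-fold and the median was 0.17, or -0.04 with the trend subtracted. PIK3R1, which encodes the p85-alpha regulatory subunit, had 873 counts in vector cells and 2007 in PKP2 cells. Its ratio was 1.44 (interval 1.32 to 1.55), the highest of the 130 pathway genes, and 1.25 with the trend subtracted. Only 0.76% of its 31-base stretches occur in other listed genes. Among the genes of this arm with more counts, the kinase genes PDPK1 and AKT1 had ratios of 0.28 and -0.19. Of the 31-base stretches of PDPK1, 36.5% occur in other listed genes.

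Genes induced by ERK signalling went both ways, with 3 of 31 higher by 2-fold or more, 1 lower by that much and a median of 0.05. Over all genes tested, 2.47% were higher and 4.61% lower by that much. EPHA4, a receptor for ephrins, had 281 and 603 counts (1.34, interval 1.13 to 1.55). DUSP6, the ERK phosphatase, had 667 and 1244 counts (1.14), but 38.5% of its 31-base stretches occur in other listed genes. IER2, an immediate-early gene, had 334 and 601 counts (1.08), and SPRY1, a feedback inhibitor, had 43 and 13 (-1.49, interval -2.51 to -0.57). With 1 CPM added to both libraries the ratio of SPRY1 was -0.77, within 2-fold. The genes with the most counts were DUSP4 (0.47), MCL1 (0.13) and ETV1 (0.26).

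**Figure D5:**
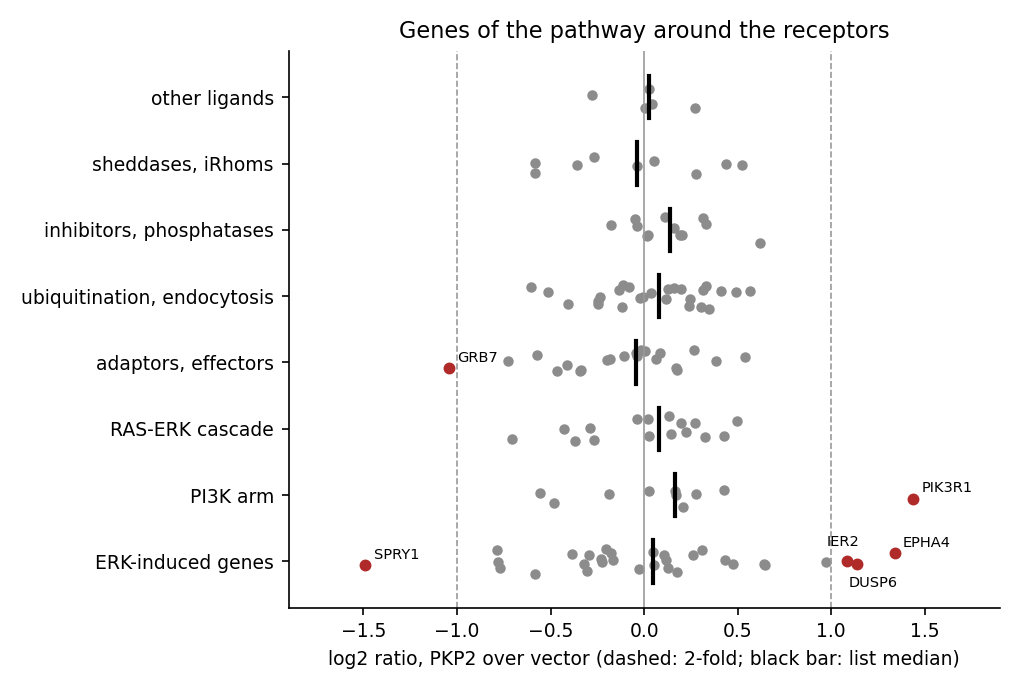
Log2 ratio of each of the 130 measured pathway genes, 1 point per gene in 8 lists, with the list median as a black bar and dashed lines at 2-fold. Medians lie between -0.04 and 0.17, and the 6 genes past 2-fold (red) are PIK3R1, EPHA4, DUSP6 and IER2 on the higher side and GRB7 and SPRY1 on the lower.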

How the data were processed

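Per the labels' protocols, RNA was extracted with Trizol and made into Illumina TruSeq libraries. Bowtie 0.12.2, GRCh37 and hg19 are named in the submitters' processing notes. Not given in the sources used here are the counting program, its annotation and its use of strand. The authors deposited raw counts, 1 value for each Ensembl ID, per the file headers. They are classed as estimated counts, as deposited, only because 1 damaged row holds a decimal, and were otherwise whole. In each file 2 rows with no readable gene or count were left out.

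Symbols matched 22579 of 22965 IDs. Libraries were scaled by totals times TMM factors of edgeR 4.0.16 in R 4.3.3, which were 1.01 (vector) and 0.991 (PKP2). Ratios are of CPM with no pseudocount, with exact binomial (Clopper-Pearson) 95% intervals. Intervals cover counting error only and take each read as independent. The reads carry no molecular identifiers and may repeat a molecule, in which case the intervals are too narrow. No p-value was computed, since edgeR's quasi-likelihood test needs replicates. Genes whose mean reached 10 counts were called at 2-fold.

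Transcript sequences came from GENCODE release 29, used by gene ID because its build is not that of the files; 99.4% of tested genes had one. The APPRIS principal transcript was used where marked, otherwise the longest. The GC trend was fitted with lowess in statsmodels 0.14.6 (fraction 0.3) to genes whose mean reached 100 counts. Promoter windows came from RefSeq. The remaining software was Python 3.11.15 with SciPy 1.17.1, NumPy 2.4.6, pandas 2.3.3 and matplotlib 3.10.9. DESeq2 1.42.0 size factors, upper-quartile factors, totals, pseudocounts, other thresholds and filters, and GC corrections were the alternatives. The ratio steps were tested on simulated counts drawn with counting error only. These held no GC trend and no spread between cultures, so neither was covered by that test.

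The members and lists were chosen with earlier results of these data known. Named genes are PKP2, the members, the 3 genes with most counts in each list, list genes past 2-fold, overlapping genes of members, and the 3 genes nearest to EGFR. Some genes named by this rule are not reported here. Of overlapping genes of other list genes, only FBXO22 is named, chosen after its values were seen.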

Additional observations from a re-analysis of the deposited data

How the results depend on the processing

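No paired analysis was possible because each group has 1 library. Under library totals, DESeq2 size factors, upper-quartile factors and pseudocounts of 0.5, 1 and 5 CPM, all 10 member ratios stayed within their counting intervals with the same sign. ERBB2 left its interval with the GC correction (0.38), relative to the 100 nearest genes (0.42), with the GC content of longest transcripts (0.31) and summed with MIEN1 (0.31). ERRFI1 left it relative to the nearest genes (0.28) and NRG1 with longest transcripts (0.39). The use of longest transcripts and the sums with overlapping genes were chosen after seeing the data. At a threshold of 1.5-fold 1 member was higher (EREG) and 1 lower (TGFA), both on few counts, and EGFR lay just inside (0.58), but past it under DESeq2 size factors (0.59) and upper-quartile factors (0.60).

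The number of genes at least 2-fold higher was 395, and 231, 180 and 106 with 0.5, 1 and 5 CPM added, 1858 without a filter, and 195 and 161 at means of at least 50 and 100 counts. The number lower was 737, and 393, 249 and 81, then 2800, then 304 and 209. At 1.5-fold 1098 were higher and 2060 lower, and at 3-fold 114 and 251. With 1 CPM added or either GC correction, 0 adaptors and first effectors were past 2-fold. Of ERK-induced genes 4 were past 2-fold, 3 with 1 CPM added and 5 under either GC correction. Depth limits the 4 members with a mean under 100 counts.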
